A study of Mus musculus with 2 samples.

Results

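The T cell receptor alpha and beta variable segments, the Trav and Trbv genes, were described in sorted leukocytes of mouse tumours. Every gene whose symbol starts with Trav or Trbv and that held at least 10 UMIs over both libraries was taken. A UMI is 1 captured RNA molecule. The rule gave 62 segments, 19 Trbv and 43 Trav, of 163 such genes and of 31053 genes in all. The other 101 were left out, of which 67 held no UMI and 34 held 1 to 9 UMIs, 145 in sum. Just outside the minimum were Trav12-3, Trav13d-4, Trav5-1 and Trav7-3 at 9 UMIs, and just inside was Trav13n-1 at 10.

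CD45+ cells were sorted from tumours of C57BL/6 mice and profiled with droplet chemistry that reads transcripts from the 5′ end. 1 library came from WT mice and 1 from mice whose label reads Ythdf2 cKO, a conditional knockout; the Ythdf2 protein binds RNA that carries m6A. The sources used here do not give the Cre driver, the number and age of the animals or the tumour type. Since neither label has a replicate, nothing was tested, and every difference below describes a pair of libraries. Brackets give exact 95% intervals, which cover counting error only.

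Each T cell precursor joins 1 V segment to a joining segment, with a diversity segment between them in the beta chain, and the join then stands in its messenger RNA and in that of all its descendants. The V segment encodes most of the domain that touches peptide and MHC, and the constant genes Trac, Trbc1 and Trbc2 encode the rest of the chain. A broad population uses many segments, whereas cells that descend from few precursors share the same ones. A shared segment alone does not show shared descent, and the junction, the D and J segments and clonotypes were not analysed here.

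The Trav14 family is shown first because its copy Trav14d-3-dv8 had the most UMIs of all 62 segments. The C57BL/6 alpha locus holds duplicated blocks, whose genes carry d or n in their names, so near copies must be told apart by few bases. Each line below gives the last 60 coding bases, 5′ to 3′, of the plus strand of GRCm38 chromosome 14 in the GENCODE vM21 transcripts, and capitals mark bases that differ from Trav14d-3-dv8.
Trav14d-3-dv8: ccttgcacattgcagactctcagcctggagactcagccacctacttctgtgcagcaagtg
Trav14-3: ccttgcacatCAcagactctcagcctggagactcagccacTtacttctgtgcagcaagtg
Trav14n-3: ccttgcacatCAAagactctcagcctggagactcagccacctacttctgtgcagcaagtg
Trav14-1: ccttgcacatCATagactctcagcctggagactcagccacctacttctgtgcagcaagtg
Trav14-2: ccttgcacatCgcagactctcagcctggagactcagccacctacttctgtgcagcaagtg
Over the whole coding stretch of 361 bases, Trav14d-3-dv8 (chr14:53078452-53079045) was 97.2% identical to Trav14-3, 96.7% to Trav14n-3, 95.3% to Trav14-2 and 93.6% to Trav14-1. Of its 100-base windows, the length of a read, 98.0% occurred in no other V segment.

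The next sequences belong to segments that came up together or alone in the CD8 cells described below, and capitals mark the last in-frame cysteine codon, where the junction begins.
Trbv26: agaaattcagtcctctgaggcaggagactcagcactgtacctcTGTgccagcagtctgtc
Trav6-5: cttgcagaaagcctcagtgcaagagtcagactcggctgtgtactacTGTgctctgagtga
Trbv17: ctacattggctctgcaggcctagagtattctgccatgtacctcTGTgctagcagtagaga
Trav6-7-dv9: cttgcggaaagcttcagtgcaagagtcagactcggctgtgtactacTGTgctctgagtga
Trbv5: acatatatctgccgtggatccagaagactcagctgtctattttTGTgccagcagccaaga
These lie on the plus strand at chr6:41227934-41227993 (Trbv26), chr14:53491563-53491622 (Trav6-5), chr6:41163497-41163556 (Trbv17), chr14:53710360-53710419 (Trav6-7-dv9) and chr6:41062744-41062803 (Trbv5) in GRCm38.

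All 19 Trbv segments, spread over chr6:40891229-41558452, could be told apart in every 100-base window. Of the 43 Trav segments on chromosome 14, 12 were unique in every window, and 4 were unique in under 50%: Trav11 at 0.41%, Trav9n-4 at 24.0%, Trav6-5 at 27.0% and Trav13n-1 at 43.1%. The d block held 4 of the 43 (chr14:52753367-53079045), the n block 8 (chr14:53122114-53370575) and the remaining stretch 31 (chr14:53418349-53927595). Segments left out by the rule were less unique, with a median of 37.5% against 99.2% in the 62. Assignment to a single Trav copy is therefore uncertain for copies with few unique windows, and Trav usage is given by family as well. 1 of the 62, Trav22, is annotated as a pseudogene, and 8 carry dv in the name because the delta chain uses them too.

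Ythdf2 itself was measured first, as a check of the labels. In CD8-gate cells, defined below, its RNA stood at 69.6 CPM under the WT label and at 152 CPM under the cKO label, where CPM is the gene's UMIs scaled to the summed UMIs of the gate. In Foxp3-gate cells the values were 73.9 and 260 CPM, and in other Cd3-positive cells 68.6 and 144 CPM. The RNA thus went against the label. Reads from the 5′ end can lie outside the deleted part, so this checks nothing about the deletion, and every direction between the libraries carries that reservation. Paired values below give the library labelled WT first.

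After filtering, 10992 and 9086 cells remained in the libraries labelled WT and cKO, with medians of 5130.5 and 8003.5 UMIs. T cells were taken by at least 2 UMIs of Cd3d, Cd3e and Cd3g, genes of the CD3 signalling chains. The CD8 gate (Cd8a or Cd8b1, no Foxp3) held 1059 and 2009 cells, which was 9.63% and 22.1% of kept cells. The Foxp3 gate, for the regulatory T cell factor, held 571 and 359 cells, and 2436 and 1249 other Cd3-positive cells remained. Cells with both Cd8 and Foxp3 (180 and 195) had medians of 29527 and 25530 UMIs and were left out. The libraries shared 43 barcodes, of which 2 and 3 fell in the CD8 gate. Myeloid RNA was present in every gate: the 5 myeloid markers, none at 0, summed to 6048 and 1452 CPM in the CD8 gate, 6662 and 2722 in the Foxp3 gate and 5870 and 1535 in the other cells. The complement gene C1qa, a macrophage marker, was found in 48.3% and 15.2% of CD8-gate cells, and the leading values are given again without such cells below; otherwise the part of this RNA in the results was not tested.

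Few T cells showed their V segment. A Trbv UMI was found in 119 of 1059 CD8-gate cells (11.2%, 9.40 to 13.3) under the WT label and in 161 of 2009 (8.01%, 6.86 to 9.29) of the library labelled cKO. A Trav UMI was found in 89 (8.40%, 6.80 to 10.2) and 263 cells (13.1%, 11.6 to 14.6). The chains thus differed in opposite directions between the libraries, and neither pair of intervals overlapped. A single segment, Trav14d-3-dv8, was held by 6 of the 89 and 102 of the 263 Trav-positive cells, so the Trav difference is not one of all segments alike. With all cells thinned to 2902 UMIs, the Trbv shares were 4.49% (3.28 to 5.97) and 2.75% (2.07 to 3.58). The Trav shares were 3.16% (2.16 to 4.46) and 5.30% (4.35 to 6.39). The order was the same for both chains, but each pair of intervals then overlapped. Of the positive cells, 87.4% and 83.9% had a single Trbv UMI, and 80.9% and 77.9% a single Trav UMI.

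Detection in the other gates depended more on depth. In the Foxp3 gate, 7.01% and 7.80% of cells had a Trbv and 10.2% and 15.6% a Trav UMI. In other Cd3-positive cells the shares were 5.34% and 8.65% for Trbv and 6.98% and 12.2% for Trav. At equal depth the Trbv shares were 2.32% (1.16 to 4.11) and 2.02% (0.817 to 4.12) in the Foxp3 gate. In the other cells they were 4.59% (3.66 to 5.67) and 3.75% (2.75 to 4.99). The order of the values turned in both gates, but each pair of intervals overlapped. In the Foxp3 gate the Trbv intervals overlapped before thinning too. The Trav shares at equal depth were 3.79% and 5.49%, and 4.65% and 6.08%, in the same order as before and with overlapping intervals.

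Cells that should lack the receptor set the background. Among cells without Cd3 UMIs that held the macrophage receptor Csf1r or the B cell gene Cd79a (3289 and 2554 cells, medians of 7540 and 12051.5 UMIs), a Trbv UMI was found in 0.0304% and 0.157% and a Trav UMI in 0.213% and 0.157%. The CD8-gate cells, at medians of 6061 and 7563 UMIs, lay far above this share although they were sequenced less deeply.

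A cell was typed by the segment with the most UMIs, which gave 116 and 157 Trbv-typed and 86 and 254 Trav-typed cells in the CD8 gate. All 19 Trbv segments were seen under the cKO label and 16 under the WT label. Trbv26 stood apart. It was in 0 of 116 typed cells of the library labelled WT (0 to 3.13%) and in 30 of 157 (19.1%, 13.3 to 26.1) under the cKO label. With the zero set to a floor of 3 counts the ratio was 7.39, and its exact lower limit was 5.65. Trbv2 went the other way, from 19 cells (16.4%, 10.2 to 24.4) to 9 cells (5.73%, 2.65 to 10.6), a ratio of 0.350 (0.139 to 0.812).

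Other leading Trbv segments differed less. Trbv12-2 was in 11.2% and 7.01% of typed cells, a ratio of 0.625 (0.254 to 1.51). Trbv19 was in 8.62% and 7.01% and Trbv29 in 7.76% and 7.64%, with ratios of 0.813 (0.313 to 2.13) and 0.985 (0.381 to 2.65). Of the 5 Trbv segments with at least 20 typed cells, 1 was at least 1.5-fold higher in the library labelled cKO, 2 were lower and 2 lay between. The minimum is on the sum over both libraries. The 1 higher segment, Trbv26, passed it through the library labelled cKO alone and so had to differ. These counts are a description, and genes outside the V segments are not typed, so no share over all genes stands beside them. Trbv31, which lies inverted behind the beta constant genes, was rare, in 3 and 2 cells. Among segments under 20 typed cells, chosen after their values were seen, Trbv16 stood at 14 and 4 typed cells (12.1% and 2.55%, ratio 0.211, 0.0506 to 0.672), and Trbv17 at 0 and 10 (6.37%).

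**Figure D1:**
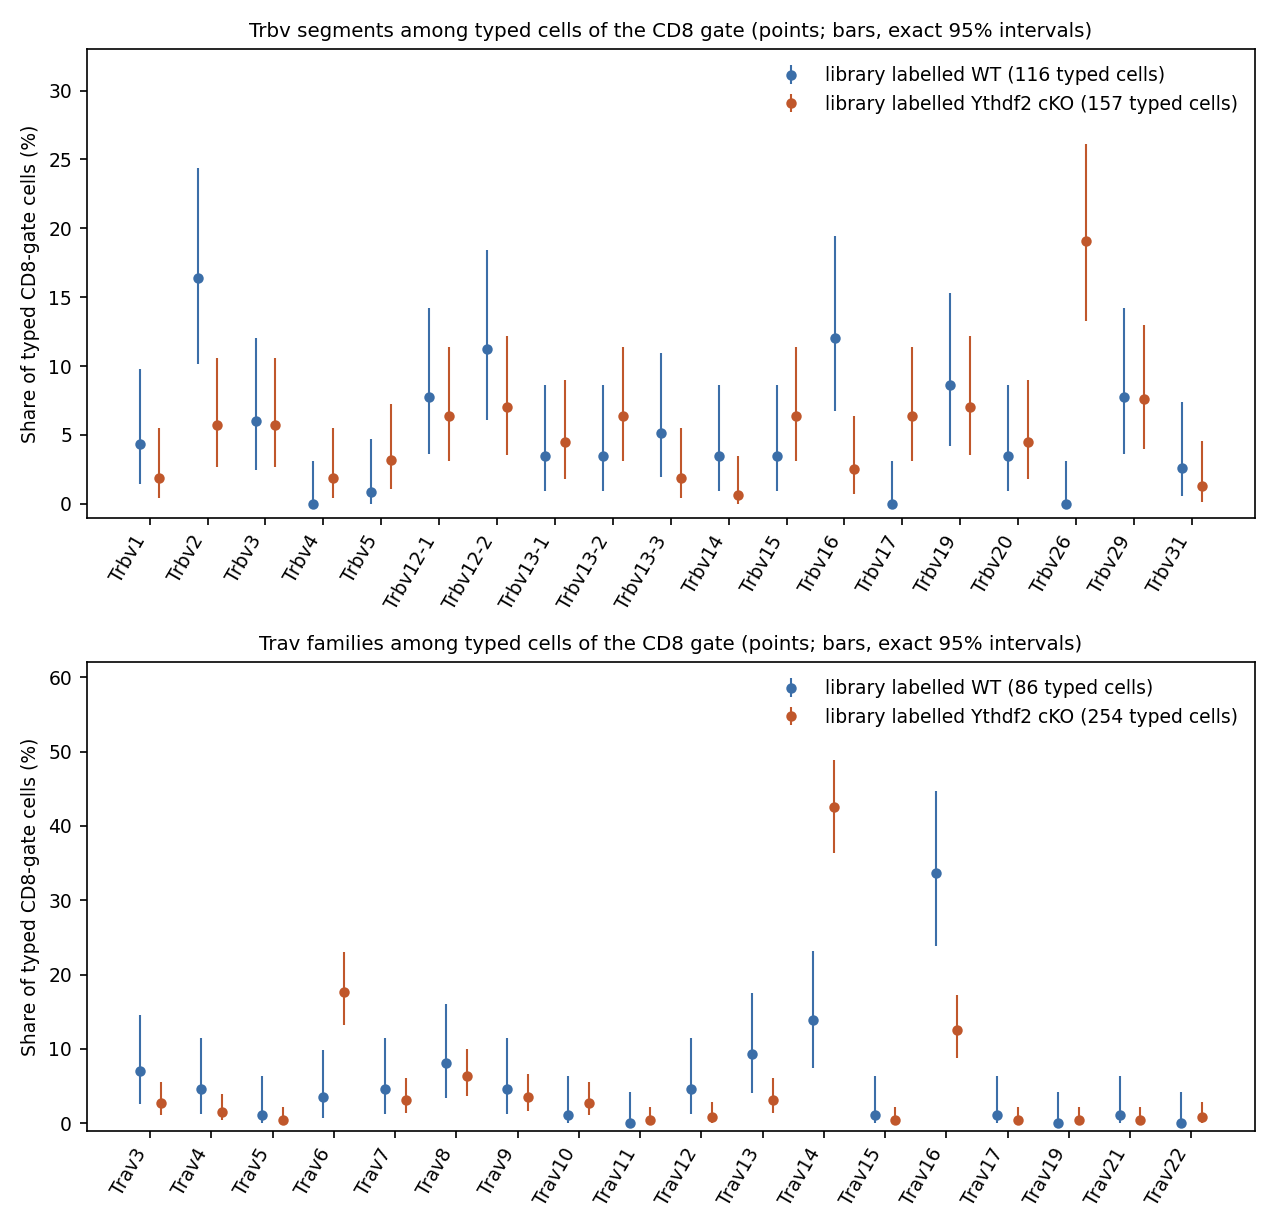
Share of typed CD8-gate cells (%, vertical axis) carrying each Trbv segment (upper panel) and each Trav family (lower panel) with the library labelled WT in blue and that labelled Ythdf2 cKO in orange, 1 library each, with exact 95% intervals as bars. Trbv26 (19.1%) and Trav14 (42.5%) stand highest in the library labelled cKO, Trbv2 (16.4%) and Trav16 (33.7%) in the library labelled WT.

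Among Trav families the CD8 gate was led by different ones in each library. Trav16 was the most frequent in the library labelled WT, in 29 of 86 typed cells (33.7%, 23.9 to 44.7), and stood at 32 of 254 (12.6%, 8.78 to 17.3) under the cKO label, a ratio of 0.374 (0.219 to 0.640). Trav14 was the most frequent in the library labelled cKO, in 108 of 254 (42.5%, 36.4 to 48.9), against 12 of 86 (14%, 7.42 to 23.1), a ratio of 3.05 (1.67 to 6.08). Trav6 stood at 3 cells (3.49%) and 45 cells (17.7%), a ratio of 5.08 (1.63 to 25.5). These families and Trav8 (8.14% and 6.30%) were the 4 with at least 20 typed cells. Of them 2 were at least 1.5-fold higher in the library labelled cKO, 1 was lower and 1 lay between. Trav6, with 3 and 45 cells, reached the minimum through the library labelled cKO, so these counts are a description too. Trav13 stood at 9.30% and 3.15%, with an interval of the ratio that included 1 (0.339, 0.111 to 1.03). At equal depth the ratio of Trav16 moved to 0.825.

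Single copies were counted next. Trav14d-3-dv8 had carriers, that is cells with at least 1 of its UMIs, in 6 of 1059 CD8-gate cells of the library labelled WT (0.567%, 0.208 to 1.23) and in 102 of 2009 of that labelled cKO (5.08%, 4.16 to 6.13), a ratio of 8.96 (3.98 to 25.0). It was the leading segment of 38.3% of Trav-typed cells there. Trav6-7-dv9 had 3 and 30 carriers (0.283% and 1.49%, ratio 5.27, 1.64 to 27.0). The d copies together stood at 12.8% (6.56 to 21.7) and 45.1% (38.8 to 51.4) of Trav-typed CD8-gate cells, and the segments with neither letter at 68.6% and 39.9%. Trav14d-3-dv8 itself made up 5 of the 11 and 97 of the 114 cells typed to a d copy, so this is not a separate result on the block. In the Foxp3 gate the d copies stood at 16.7% and 7.55%, and in other cells at 7.69% and 7.43%.

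The remaining segments of this kind were chosen after their values were seen. Trbv26 had 0 and 30 carriers, Trav6-5 0 and 14, and Trbv17 0 and 10, with an exact upper limit of 0.348% for the zeros in 1059 cells. With the zeros set to 3 counts the ratios were 5.27, 2.46 and 1.76. Their exact lower limits were 4.03, 1.75 and 1.18. Trbv2 had 20 and 9 carriers (ratio 0.237, 0.0951 to 0.545), Trbv16 14 and 5 (0.188, 0.0531 to 0.553) and Trav16 17 and 14 (0.434, 0.198 to 0.936). The near copy Trav16n had 10 and 15 carriers, and its interval included 1 (0.791, 0.332 to 1.97). Of the 62 segments, 3 had no carrier in the CD8 gate of either library and 22 had at least 10 carriers over both, 6 of which were at least 1.5-fold higher and 6 at least 1.5-fold lower in the library labelled cKO. Of all 13621 genes with at least 10 carriers there, 6.37% were higher and 22.2% lower by the same measure. Segments absent from 1 library passed this minimum through the other alone, so these counts are a description.

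**Figure D2:**
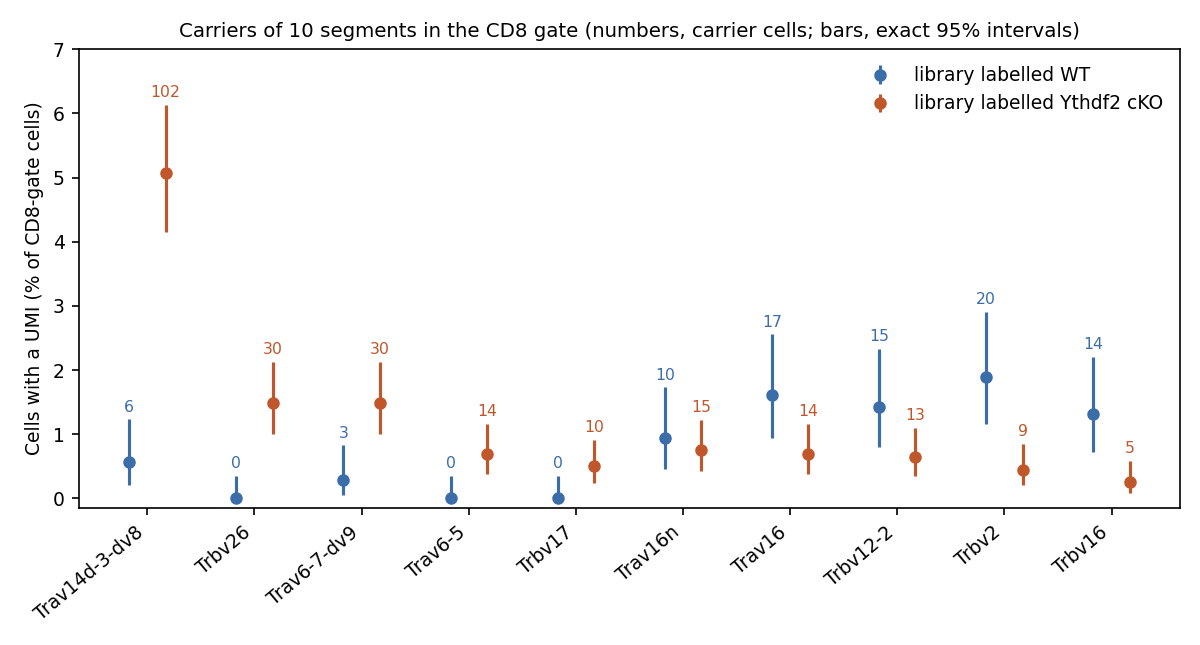
Cells with a UMI of each of 10 segments, as a percentage of CD8-gate cells (vertical axis), with the library labelled WT in blue and that labelled Ythdf2 cKO in orange, with exact 95% intervals as bars and the number of carriers printed above. Trav14d-3-dv8 reaches 102 carriers in the library labelled cKO against 6, while Trbv2 and Trbv16 have more carriers in the library labelled WT.

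Carriers were counted again with fewer cells and at equal depth. Without T cells that held a UMI of Csf1r, C1qa or Cd79a, Trav14d-3-dv8 was found in 2 of 515 (0.388%) and 78 of 1512 CD8-gate cells (5.16%), and Trbv26 in 0 and 18 (1.19%). In that setting the Trbv26 ratio in typed cells, with the zero set to 3 counts, was 3.39. With cells thinned to 2902 UMIs, Trav14d-3-dv8 was found in 1 of 981 and 39 of 1962 cells, Trbv26 in 0 and 16 and Trav6-7-dv9 in 1 and 15. Trbv17 was then found in 0 and 1 and Trav6-5 in 0 and 3, too few to compare. Trbv2 was found in 6 and 2 cells. Trav16, at 17 and 14 carriers before, was found in 2 of 981 (0.204%, 0.0247 to 0.735) and 5 of 1962 cells (0.255%, 0.0828 to 0.594). Its difference was thus not kept at equal depth, but 2 and 5 cells are too few to give an order. With doublets kept, Trbv26 had 1 and 35 carriers and Trav6-7-dv9 6 and 42.

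Summed RNA set the members beside all genes of the CD8 gate. Of 11388 genes with at least 50 UMIs, 9.79% were at least 1.5-fold higher in the library labelled cKO on the log2(CPM + 1) scale and 13% were lower. Only 2 of the 62 segments reached 50 UMIs. The minimum is on the sum over both libraries, so a segment that passed through 1 library alone had to differ, and nothing is read from how many members were called here or at the lower minimum. Trav14d-3-dv8 held 6 UMIs (0.416 CPM, 0.153 to 0.905) and 111 UMIs (4.78 CPM, 3.93 to 5.75), a log2 difference of 2.03. Trav6-7-dv9 held 3 and 51 UMIs (0.208 and 2.19 CPM), a log2 difference of 1.40. With 10 CPM added in place of 1, neither difference reached 1.5-fold. The constant genes were higher as well, Trac at 222 and 426 CPM and Trbc2 at 583 and 902 CPM. Without a pseudocount, the CPM ratios of Trav14d-3-dv8 and Trav6-7-dv9 were 11.5 (5.11 to 32.0) and 10.6 (3.41 to 52.9). At a minimum of 10 UMIs, 24 segments entered, of which 6 were higher, where 8.8% of 13830 genes were, and 3 were lower, where 13.3% were. The 6 had 0 to 6 UMIs in the library labelled WT and passed through that labelled cKO.

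Evenness was measured as the percentage of pairs of typed cells that carried the same segment or family. For Trbv in the CD8 gate it was 8.04% and 7.60%, so the sum over segments was similar although Trbv2 led under the WT label and Trbv26 under the cKO label. For Trav families it was 15.4% and 23.4%, and for single Trav segments 6.87% and 16.8%. Without the leading single segment, Trav16 and Trav14d-3-dv8, the values were 4.90% and 5.75%. By family, without Trav16 and Trav14, they were 9.84% and 16.5%, so the library labelled cKO stayed higher by families after the leading one was left out. At equal depth the Trav family value of the library labelled WT was 7.82%.

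**Figure D3:**
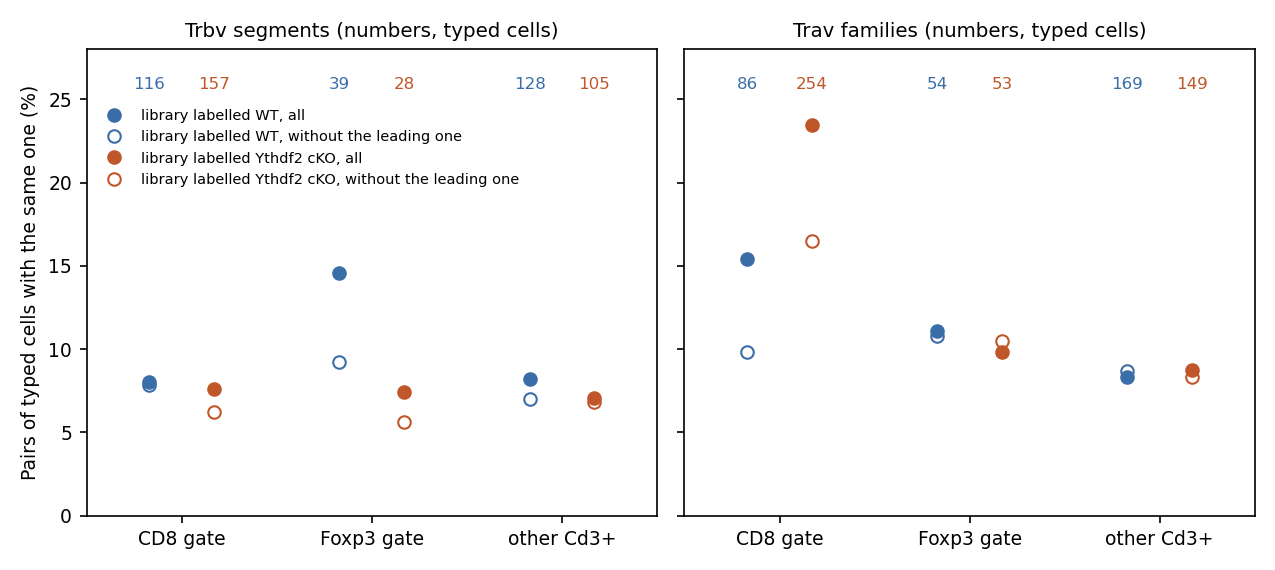
Percentage of pairs of typed cells that carry the same Trbv segment (left panel) or Trav family (right panel), by gate, with the library labelled WT in blue and that labelled Ythdf2 cKO in orange. Filled points use all typed cells, open points leave out the most frequent segment or family, and the numbers are typed cells. The highest point is Trav in the CD8 gate of the library labelled cKO, at 23.4%.

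Cells typed for both chains gave 10 and 31 pairs in the CD8 gate. Under the WT label, 8 different pairs were seen, with Trav3 and Trbv3 in 2 cells and Trav8 and Trbv1 in 2 cells. Under the cKO label, 19 were seen, led by Trav6 with Trbv17 in 7 of 31 cells (22.6%, 9.59 to 41.1), where the product of the single shares is 1.13%, or 0.350 cells. All 7 cells held Trav6-7-dv9 itself, so that 7 of the 10 Trbv17 carriers carried this alpha segment. Trav14 stood with Trbv5 in 3 cells and with Trbv15 in 3 cells. No Trav14d-3-dv8 carrier held Trbv15, so the cells with Trbv15 held another Trav14 copy. Counted by carriers, 4 of 6 Trbv5 carriers held Trav14d-3-dv8. 2 cells held Trbv26 with Trav6-5. In the Foxp3 gate no pair was seen in more than 1 cell, of 6 and 5 cells typed for both.

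Carriers in the CD8 gate of the library labelled cKO were compared with the other V-positive CD8-gate cells of the same library. The 102 carriers of Trav14d-3-dv8 (median 8238.5 UMIs) were set against 285 cells (median 9711 UMIs). Those 285 cells were unlike the gate as a whole. The whole gate of this library, carriers included, held Gzmb in 78.4%, Pdcd1 in 40.5%, Tcf7 in 29.9%, Ccr7 in 18.1% and Trbc1 in 51.4%. For each of these genes the whole gate lay closer to the carriers than the 285 cells did. Genes of cytotoxic effector cells were found more often: Gzmb, which encodes granzyme B, in 96.1% (90.3 to 98.9) against 63.9% (58.0 to 69.4), perforin Prf1 in 88.2% against 53.0%, and the cytokine gene Ifng in 87.3% against 62.1%. So were inhibitory receptor genes, with Lag3 in 79.4% against 49.1%, Havcr2 in 66.7% against 35.1% and Pdcd1 in 62.7% (52.6 to 72.1) against 33% (27.6 to 38.8).

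Genes of naive and memory cells were found less often in Trav14d-3-dv8 carriers. The transcription factor Tcf7 was found in 12.7% against 52.6% and the chemokine receptor gene Ccr7 in 7.84% against 33%. The constant genes also differed. Trbc1 was found in 13.7% (7.71 to 22.0) of these carriers against 75.1% (69.6 to 80.0), whereas Trbc2 was found in 98.0% against 97.2%. At 2902 UMIs per cell the shares were 7.0% and 63.2% for Trbc1, 89.0% and 50.5% for Gzmb, 39.0% and 11.9% for Pdcd1, and 5.0% and 29.5% for Tcf7. C1qa was found in 14.7% and 19.6%. In the library labelled WT, 4 of the 6 carriers held Trbc1, and their median depth was 24249.5 UMIs.

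The 30 Trbv26 carriers (median 6597 UMIs, against 9499 in 357 other cells) had another profile. Gzmb was found in 96.7% (82.8 to 99.9) against 70.3%, Gzma in 90.0% against 48.5%, Gzmk in 66.7% against 37.0% and Trbc1 in 96.7% (82.8 to 99.9) against 55.7%. Tox, a transcription factor of exhausted T cells, was found in 23.3% (9.93 to 42.3) against 52.9%. In the whole gate of this library, Gzmb stood at 78.4%, Gzma at 59.7%, Gzmk at 45.7%, Trbc1 at 51.4% and Tox at 42.2%. Pdcd1 stood at 26.7% (12.3 to 45.9) against 42.0% and the proliferation gene Mki67 at 16.7% against 30.8%, both within overlapping intervals. The 14 Trav6-5 carriers gave like counts, with Trbc1 and Gzmb in all 14, Gzmk in 12, Pdcd1 in 3 and Tox in 3.

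Trav6-7-dv9 and Trbv17 carriers, of which 7 were the same cells, also gave like values. Of the 30 Trav6-7-dv9 carriers (median 10993.5 UMIs), Pdcd1 was found in 66.7% (47.2 to 82.7) against 38.7% in the others, Lag3 in 76.7% against 55.5%, Tox in 63.3% against 49.6% and Trbc1 in 76.7% against 57.4%. Of the 10 Trbv17 carriers (median 11425.5 UMIs), 8 held Pdcd1, 8 Lag3, 9 Tox and 6 Mki67. Their depth was above that of the other cells (9010 in both comparisons), and C1qa was found in 9 of 30 and 4 of 10 of them, against 17.4% and 17.8%.

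Among segments that led in the library labelled WT, counts differed between the copies Trav16 and Trav16n. Of their 100-base windows, 82.9% and 57.7% occurred in no other V segment, so which copy a carrier held is not certain. Of 17 Trav16 carriers in the library labelled WT, 13 held Lag3, 12 Prf1 and 10 Pdcd1, but 4 Trbc1. C1qa was found in 10 of the 17. The median of these 17 was 9662 UMIs against 6803 in the other cells. Of 10 carriers of the near copy Trav16n, all 10 held Tcf7 and none held Pdcd1. The same Trav16 in the library labelled cKO had 14 carriers, with Tcf7 in 11, Gzmb in 4 and Pdcd1 in 2. Of 14 Trbv16 carriers of the library labelled WT, 11 held Lag3, 11 Mki67 and 9 Pdcd1, at a median of 9922 UMIs against 6860 in the other cells.

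**Figure D4:**
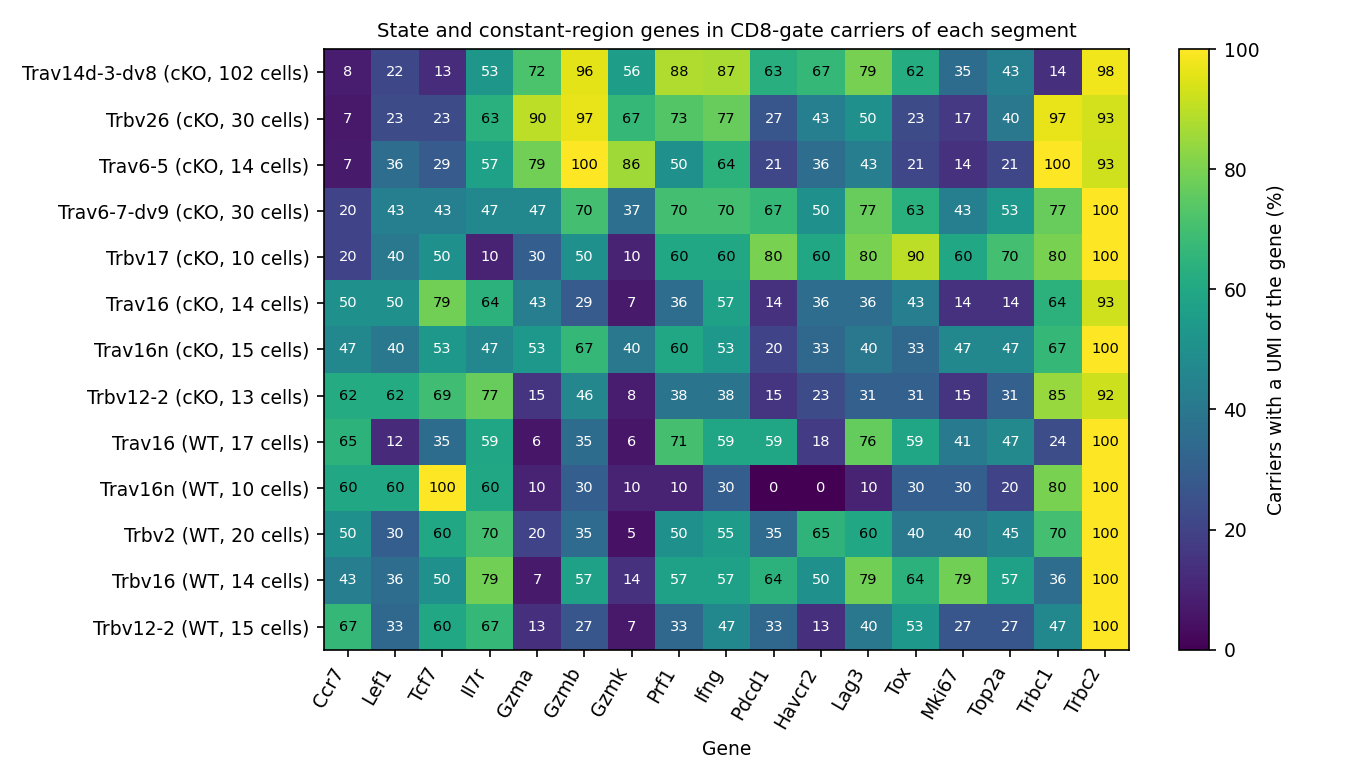
Percentage of CD8-gate carriers of each segment (rows, with library and number of carriers) that held a UMI of each gene (columns), from 0 (dark) to 100% (yellow). Trav14d-3-dv8 carriers of the library labelled cKO combine Gzmb in 96% with Trbc1 in 14%, whereas Trbv26 and Trav6-5 carriers combine Gzmb with Trbc1 in 97% and 100%.

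The gate as a whole differed in state, with Gzmb in 26.6% and 78.4% of its cells and Tcf7 in 65.3% and 29.9%. Carriers were therefore counted again among cells that held Pdcd1 or Havcr2. Cells with Pdcd1 or Havcr2 were 36.2% and 58.0% of the gate (medians of 18982 and 8803 UMIs). Within them, Trav14d-3-dv8 was found in 4 of 383 cells (1.04%, 0.285 to 2.65) and 85 of 1165 (7.30%, 5.87 to 8.94). These cells differed in depth between the libraries, and the part of state, depth or myeloid RNA in this difference was not tested. The concentration of Trav families in these cells was 13.7% and 35.2% of pairs, from 34 and 158 typed cells. For Trbv segments it was 10.9% and 7.09%, from 54 and 86 typed cells, so the chains went in opposite directions. Trav14 made up 55.1% (47.0 to 63.0) of the 158 Trav-typed cells under the cKO label. Trbv26 was found in 0 of 383 and 15 of 1165 of these cells (1.29%), which held 15 of its 30 carriers.

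In the Foxp3 gate the intervals of all leading ratios included 1. Trbv2 led in both libraries, with 13 of 39 (33.3%, 19.1 to 50.2) and 6 of 28 typed cells (21.4%, 8.30 to 41.0). Trbv12-2 stood at 10.3% and 14.3%, and Trbv13-1 at 12.8% and 7.14%. Trav16 led the alpha families in the library labelled WT with 12 of 54 (22.2%) and Trav6 in the library labelled cKO with 9 of 53 (17%). Trav16 was the only family with 20 typed cells, at a ratio of 0.679 (0.241 to 1.81). Of 12424 genes with at least 10 UMIs, 8.22% were higher and 11.6% lower. Of the 5 segments that reached this minimum, 1 was higher, Trav16 with 2 and 13 UMIs, and 1 was lower, Trav4-4-dv10 with 17 and 3 UMIs. No segment reached 50 UMIs, where 7.3% of genes were higher and 9.69% lower.

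Other Cd3-positive cells are mixed, since Trdc, the delta constant gene, was found in 24.3% and 26.3% of them. Cd4 was found in 16.3% and 18.4%. In the deeper Foxp3 gate (medians of 10511 and 13034 UMIs) Cd4 was found in only 51.8% and 64.1%. A cell without a Cd4 UMI is therefore not shown to be of another type. Trbv12-2 led in both libraries, with 25 of 128 (19.5%) and 16 of 105 typed cells (15.2%). Trbv1 stood at 7.03% and 12.4% (ratio 1.76, 0.696 to 4.67) and Trbv2 at 10.9% and 6.67% (0.610, 0.208 to 1.61). Among Trav families, Trav16 stood at 14.2% and 15.4%, Trav13 at 11.2% and 18.1% (1.61, 0.864 to 3.07) and Trav4 at 8.28% and 5.37%. Of 4 Trbv segments with 20 typed cells, 1 was at least 1.5-fold higher and 1 lower in the library labelled cKO, and of 7 Trav families 1 was higher and 2 lower. All 11 intervals of these ratios included 1. Counted by carriers, 11 of the 20 segments with at least 10 of them were at least 1.5-fold higher in the library labelled cKO and 0 lower. Of all 13451 genes with at least 10 carriers in this gate, 13.4% were higher and 10.9% lower, and the median depth of the gate was 3641.5 and 6486 UMIs. By summed RNA, 4 of 24 segments were higher and 0 lower, where 5.16% and 13.5% of 13700 genes were. The 4 were Trav16 (9 and 24 UMIs), Trav14d-3-dv8 (9 and 20), Trbv16 (1 and 9) and Trav13-4-dv7 (14 and 21). No segment reached 50 UMIs there, where 5.14% and 13.2% of genes were called.

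Trav11, the V segment of the invariant NKT alpha chain, had 21 and 8 carriers in these other cells (0.862% and 0.641%). Of its carriers 5 and 2 held Zbtb16, the transcription factor of NKT cells, in 23.8% and 25.0% against 10.8% and 8.70% of the rest. The NK receptor gene Klrb1c was found in 7 and 4, and Trdc in 1 and 0. C1qa was found in 10 of 21 and 1 of 8. Of Trav-typed cells Trav11 took 12.4% and 5.37%, a ratio of 0.432 (0.166 to 1.02). Because nearly all its 100-base windows occur in another V segment, reads of its copies cannot be told apart.

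The segments shared with the delta locus differed in how often Trdc was found with them. Trav13-4-dv7 had 11 and 17 carriers among other Cd3-positive cells, and Trdc was found in 7 of 11 and 17 of 17 (80.5 to 100%). Trac was found in 5 of 11 and 6 of 17, so under the cKO label 6 of the Trdc-positive carriers held Trac as well. Among Trdc-positive cells its share was 1.18% (0.477 to 2.42) of 592 and 5.18% (3.05 to 8.17) of 328, at medians of 3431 and 6445 UMIs. Among Trdc-negative cells it was found in 4 of 1844 and 0 of 921, and the exact upper limit of that zero was 0.400%. Trav15-1-dv6-1 and Trav15-2-dv6-2 together had 10 and 11 carriers, with Trdc in 9 and 8 and Trac in 1 and 3. In contrast, Trdc was found in none of the 9 and 7 carriers of Trav6-7-dv9, and in 1 of 9 and 0 of 9 of Trav14d-3-dv8. Trac was found in 8 and 6, and in 6 and 9 of these. All 6 and 3 carriers of Trav4-4-dv10 held Trac. Trav21-dv12 and Trav16d-dv11 had 3 and 3 and 2 and 2 carriers, too few to read.

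**Figure D5:**
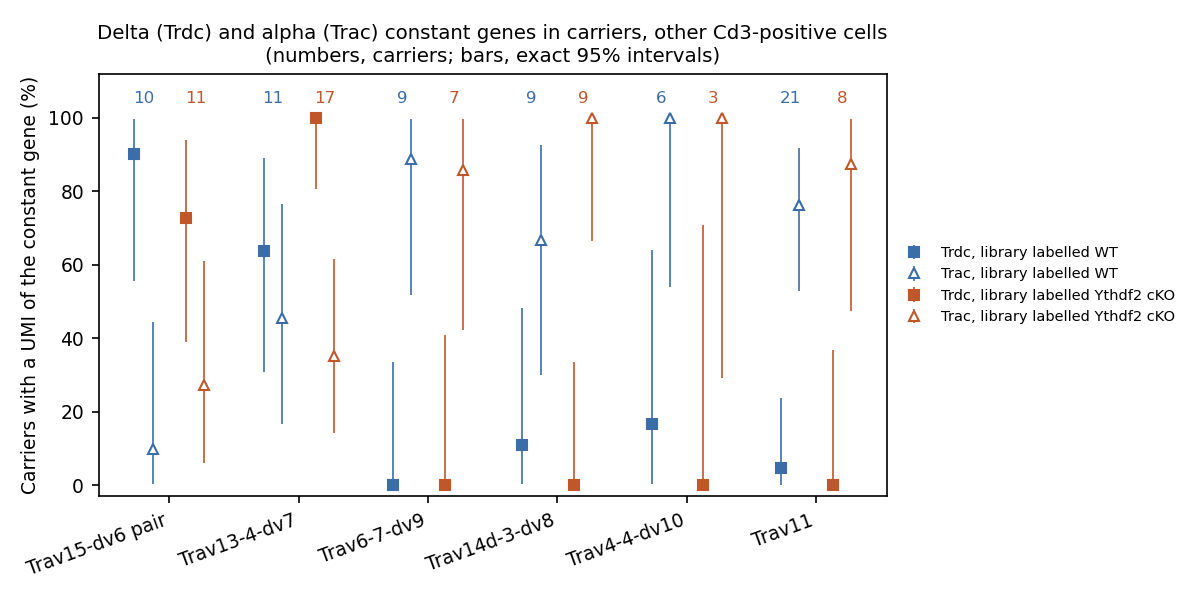
Percentage of carriers (vertical axis) with a UMI of Trdc (filled squares) or Trac (open triangles) among other Cd3-positive cells, for 5 groups of segments shared with the delta locus and for Trav11, with the library labelled WT in blue and that labelled Ythdf2 cKO in orange. Bars are exact 95% intervals and numbers are carriers. Trdc stands at 64 to 100% in Trav15-dv6 and Trav13-4-dv7 carriers and at 17% or less in the rest.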

How the data were processed

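The authors deposited raw counts, 1 UMI matrix of genes by barcodes for each library. Per the submitters' processing notes the authors used Cell Ranger 5.0.1, Seurat 4.0.4 and mm10, whereas the matrix header names cellranger 5.0.0. The sources used here do not give the annotation release or how strand and reads that match several segments were handled. Coordinates and sequences come from GENCODE vM21 (GRCm38), matched by gene identifier for all 62 segments. The members and lists were chosen with earlier results of these data known.

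Barcodes with at least 200 genes and at most 10% mitochondrial UMIs were kept, and the 1187 and 779 highest Scrublet scores were removed (scanpy 1.11.5, 0.8% per 1000 cells). Shares used Clopper-Pearson, sums Poisson and ratios conditional binomial intervals (scipy 1.17.1). Zeros used a floor of 3 counts per library. For equal depth, cells were thinned to 2902 UMIs, the lower of the libraries' values at percentile 20, and shallower cells left out (78 and 47 in the CD8 gate). Summed UMIs were scaled to CPM with a pseudocount of 1 CPM. Named were the 5 most frequent Trbv segments and Trav families per gate, the 3 with the largest ratios each way with 20 typed cells, dv segments, Trav11, Trbv31 and leading pairs, and others after their values were seen. The interval methods were tested on simulated data. A search of promoters and recombination signals was not run. 1 gene of the state list is not reported here.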

Additional observations from a re-analysis of the deposited data

Results flagged for a closer look

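Trav22 gave a signal in cells outside the T cell gates too. Among cells without Cd3 UMIs, 16 of 6088 in the library labelled WT and 17 of 4564 in the library labelled cKO held a Trav22 UMI, against 0 and 2 carriers in the CD8 gate. All carriers without Cd3 UMIs held a UMI of Ncr1, Klrb1c or Klre1, genes of natural killer cells. They were 16 of 1477 such cells (1.08%, 0.620 to 1.75) and 17 of 1662 (1.02%, 0.597 to 1.63). Among cells without these UMIs, 0 of 4611 and 0 of 2902 were carriers, with exact upper limits of 0.0800% and 0.127%. Trbc1 was found in 13 of 16 and 16 of 17, and Trac in 0 and 1. Trav22 (chr14:53926978-53927595, GRCm38) is annotated as a pseudogene and overlaps an antisense gene. Without a stated strand setting, reads of the gene and of its antisense partner cannot be told apart.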

How the results depend on the processing

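No paired analysis was possible because each label has 1 library and no replicate number, and leaving out a replicate does not apply. Most T cells had no V UMI and most positive cells had 1, which limits every share.

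At equal depth the ratio of Trbv detection turned to 0.817 in other cells and to 0.874 in the Foxp3 gate, and that of Trav in other cells became 1.31. The Trav family concentration of the CD8 gate labelled WT became 7.82%, the Trav16 ratio 0.825 and the Trbv26 ratio, with the zero at the floor, 4.15. The segments with at least 20 typed cells and past 1.5-fold numbered 0 (Trbv) and 1 (Trav) in the CD8 gate and 0 and 1 in other cells. Trbv26 itself, with 16 carriers, was under that minimum of cells. Without T cells holding Csf1r, C1qa or Cd79a, the Trbv26 ratio, with the zero at the floor, was 3.39, on 18 carriers. Among those with 20 typed cells, 0 Trbv segments of the CD8 gate, 0 of other cells and 1 Trav family of other cells passed 1.5-fold, 12 results had under 20 typed cells and no value, and 1 member was higher by summed RNA. With doublets kept, 6 Trav families of the CD8 gate and 1 Trav family and 1 Trbv segment of the Foxp3 gate passed. With Cd8 and Foxp3 cells counted as CD8, 5 Trbv segments passed and 1 member was lower by summed RNA. Other cells had 1 Trbv segment past 1.5-fold at 5% mitochondrial UMIs or 4 Cd3 UMIs, and 0 Trav families with 2 UMIs per typed cell. A pseudocount of 10 CPM left 0 members higher, and a minimum of 10 UMIs gave 6 higher and 3 lower. With single Trav segments in place of families, concentrations were 6.87% (CD8, WT), 4.40% and 3.05% (Foxp3) and 4.43% and 3.72% (other), and Trav14d-3-dv8 alone had a ratio of 6.59. The other 273 values of the leading results under alternatives moved by less than counting error, or for counts and concentrations by at most 1.5 times. This does not fix the side of 1 for ratios near 1. Of the values of the remaining results, 299 stayed within the same limits and 20 moved beyond them, and these are not all listed here. With 2-fold in place of 1.5-fold, 6 values moved and 6 stayed. With 2 UMIs per typed cell 41 results had no value, at equal depth 22 and at 4 Cd3 UMIs 1.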
